A study of Mus musculus with 4 samples.

Results

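Ifit1, Ifit3, Ifitm3, Irf7, Irf9, Isg15, Stat2, Oasl2 and Bst2 are 9 genes that respond to type I interferon, taken by their symbols from the 29300 genes of a hippocampal RNA-seq table. RNA was taken on day 1 after the procedure from male C57BL/6 mice of 7 to 8 months. The sham group (2 mice) was given isoflurane and tramadol but no fracture, and the surgery group (2 mice) received the same drugs plus an open fracture of the tibia fixed with an intramedullary pin, a mouse model of perioperative neurocognitive disorder (PND). The question for these genes was whether their transcripts differed between surgery and sham mice. Every mouse had reads for all 9 genes, and all 9 passed the filter on low counts that left 17144 genes for testing.

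Type I interferons are cytokines released when cells sense foreign or misplaced nucleic acid. They bind the receptor formed by Ifnar1 and Ifnar2, the kinases Jak1 and Tyk2 phosphorylate Stat2 among other proteins, and Stat2 and Irf9 enter a complex called ISGF3, which binds the interferon-stimulated response element (ISRE) near target genes and turns them on. In the brain, microglia, astrocytes, endothelial cells and neurons can all respond to interferon, and the meninges and the choroid plexus hold responsive cells as well.

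No member was called between surgery and sham mice, and in most members the second surgery mouse stood above the other 3 mice. A gene was called when its adjusted p in edgeR's quasi-likelihood test (Benjamini-Hochberg over all tested genes) was under 0.05 and its fold change was at least 1.5 or at most 0.67. Of the 9 genes, 0 were called higher and 0 lower, against 6.75% and 2.25% of all tested genes (9.01% in either direction). By edgeR, 0 of the 9 passed at the adjusted p alone (26.0% of all tested genes) and 1, Irf9, had an unadjusted p under 0.05 (39.4% of all tested genes). DESeq2 called 0 of them (5.31% of all tested genes higher and 2.15% lower), gave 0 an unadjusted p under 0.05 (30.3% of all tested genes), and gave Isg15 no adjusted p. The median log2 fold change (surgery over sham) of the 9 genes was 0.61, with 8 values above 0 and 1 below, whereas the median over all tested genes was 0.01. With the second surgery mouse left out, the median of the 9 genes was 0.03 and that of all tested genes 0.00.

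**Figure D1:**
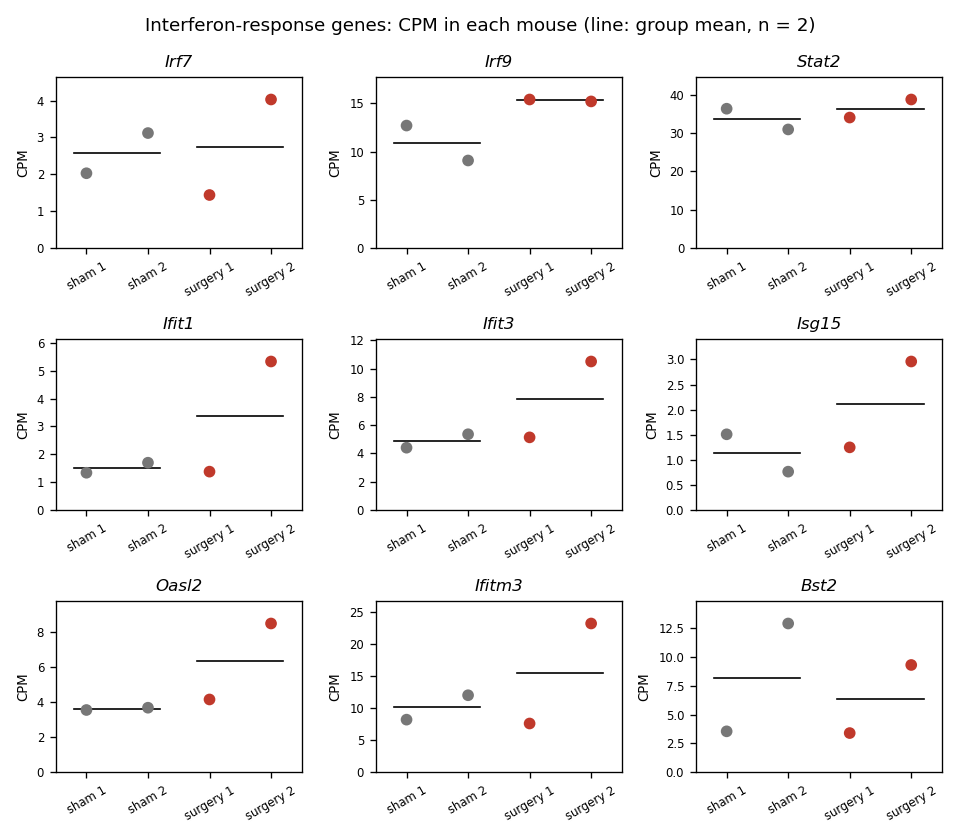
Normalised read counts (CPM, read counts scaled to library size; linear axes from 0) of the 9 genes in each of the 4 mice, 1 panel per gene, with a point per mouse and a bar at each group mean. The second surgery mouse held the highest value in 7 of the 9 panels; Irf9 was highest in the first surgery mouse and Bst2 in the second sham mouse.

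The members that act inside the signaling chain are Stat2 and Irf9, both found in ISGF3, and Irf7, the factor that amplifies interferon production and is itself induced. Stat2 (mm10 chromosome 10, 128270559 to 128292849, plus strand) had a normalised read count (CPM) of 36.3 and 30.9 in the sham mice and 34.0 and 38.7 CPM in the surgery mice. Its groups overlapped, and its log2 fold change was 0.11 (SE 0.12, 95% interval −0.17 to 0.39, edgeR adjusted p = 0.52).

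Irf9 (chromosome 14, 55603571 to 55610030, plus strand), the DNA-binding subunit of ISGF3, had 12.7 and 9.08 CPM in the sham mice against 15.4 and 15.2 CPM in the surgery mice. Both surgery mice lay above both sham mice, and the surgery mice were nearly equal (15.3 ± 0.182 CPM, SD, n = 2) whereas the sham mice were not (10.9 ± 2.53 CPM, SD, n = 2). Its log2 fold change of 0.50 (SE 0.18, 95% interval 0.06 to 0.93) missed the threshold after adjustment by edgeR (adjusted p = 0.091). Without the first sham mouse the log2 fold change was 0.75 and passed (edgeR adjusted p = 0.034; 6.37% of all tested genes were called higher in that fit), and without the second sham mouse it was 0.27. In these fits the sham mouse that remains is assumed to vary like the surgery mice, which were nearly equal for Irf9. Exons of Irf9 overlap those of Rnf31 on the same strand, and 0.9% of the 75-base windows of its transcripts occur in another gene.

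Irf7 (chromosome 7, 141262706 to 141266481, minus strand) had 2.03 and 3.12 CPM in the sham mice and 1.44 and 4.03 CPM in the surgery mice, so that the surgery mice held both its lowest and its highest level. Its log2 fold change was 0.09 (SE 0.49, 95% interval −1.08 to 1.27, edgeR adjusted p = 0.91). The value was 0.63 without the first surgery mouse and −0.83 without the second. Exons of Irf7 overlap those of Phrf1 on the opposite strand, and the counting is not stated to have used strand.

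Ifit1, Ifit3, Isg15 and Oasl2 encode induced effectors found in the cytoplasm. Ifit1, which binds viral RNA that lacks the host cap modification, had 23 and 31 reads in the sham mice and 22 and 90 reads in the surgery mice (1.34, 1.70, 1.38 and 5.33 CPM). The first surgery mouse lay within the sham range, and the second was 3.87-fold above it. The log2 fold change of Ifit1 (chromosome 19, 34640871 to 34650009, plus strand) was 1.16 (SE 0.62, 95% interval −0.34 to 2.65, edgeR adjusted p = 0.22), the largest of the 9 in this fit. It was −0.13 without the second surgery mouse. After correction for GC content and length it was 0.83, below the 1.09 of Isg15.

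Ifit3 (chromosome 19, 34583531 to 34588731, plus strand), a partner of Ifit1 in the same gene cluster, showed the same order of mice. It had 4.41 and 5.36 CPM in the sham mice and 5.14 and 10.5 CPM in the surgery mice. The log2 fold change was 0.69 (SE 0.35, 95% interval −0.16 to 1.53, edgeR adjusted p = 0.2), and 0.08 without the second surgery mouse. Its near copy Ifit3b shares 41.1% of the 75-base windows of Ifit3, so the counts of the pair may be divided between them. Ifit3b itself had 3.02 and 3.01 CPM in the sham mice and 2.76 and 5.39 CPM in the surgery mice, again with the second surgery mouse highest.

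Isg15 (chromosome 4, 156199424 to 156200818, minus strand), a ubiquitin-like protein that is attached to other proteins, had the fewest reads of the 9: 26 and 14 in the sham mice and 20 and 50 in the surgery mice, which is 1.51, 0.766, 1.25 and 2.96 CPM. The first surgery mouse lay between the sham mice and the second above both. The log2 fold change was 0.91 (SE 0.53, 95% interval −0.36 to 2.18, edgeR adjusted p = 0.25), and it ran from 0.16 without the second surgery mouse to 1.47 without the first sham mouse.

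Oasl2 (chromosome 5, 114896936 to 114912234, plus strand), a relative of the oligoadenylate synthetases that sense double-stranded RNA, had 3.54 and 3.67 CPM in the sham mice and 4.14 and 8.47 CPM in the surgery mice. Both surgery mice exceeded both sham mice, which differed little (3.60 ± 0.0879 CPM, SD, n = 2), and the surgery mice were 2.05-fold apart. The log2 fold change was 0.81 (SE 0.36, 95% interval −0.05 to 1.68, edgeR adjusted p = 0.15), and 0.21 without the second surgery mouse.

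Ifitm3 and Bst2 encode membrane proteins that block viral entry and the release of virus particles. Ifitm3 (chromosome 7, 141009586 to 141010770, minus strand) had 141 and 219 reads (8.19 and 12 CPM) in the sham mice and 121 and 391 reads (7.59 and 23.2 CPM) in the surgery mice. The surgery mice held the lowest and the highest of the 4 levels, 3.05-fold apart, and the log2 fold change was 0.61 (SE 0.48, 95% interval −0.54 to 1.76, edgeR adjusted p = 0.39). Without the second surgery mouse it was −0.40.

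Bst2 (chromosome 8, 71534255 to 71537456, minus strand) was the member whose fold change lay below 0. It had 3.54 and 12.9 CPM in the sham mice and 3.39 and 9.30 CPM in the surgery mice, so that the second mouse of each group was high and the first low. Its log2 fold change was −0.37 (SE 0.64, 95% interval −1.91 to 1.17, edgeR adjusted p = 0.71), and the value ran from −1.28 without the second surgery mouse to 0.85 without the second sham mouse. Summed markers of choroid plexus were 127 and 5407 CPM in the sham mice and 2031 and 3452 CPM in the surgery mice, also with the second mouse of each group above the first. Their part in the level of Bst2 was not tested.

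**Figure D2:**
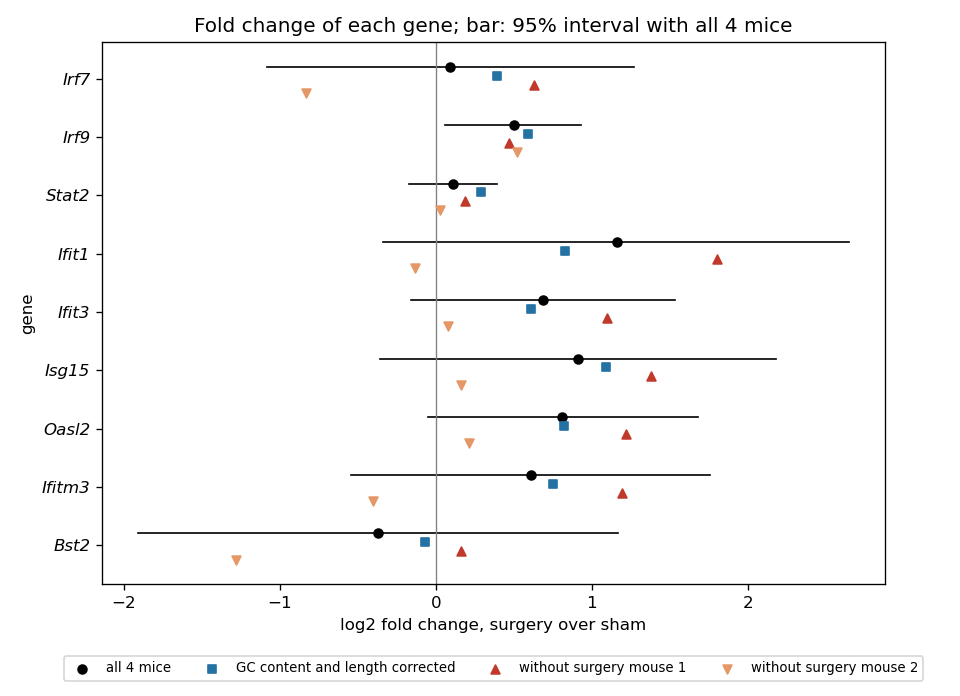
Log2 fold change (surgery over sham) of the 9 genes with all 4 mice (circle, with the 95% interval from edgeR as a bar), after correction for GC content and length (square), and without the first or the second surgery mouse (triangles). The intervals of 8 genes span 0, and that of Irf9 runs from 0.06 to 0.93; leaving out the second surgery mouse lowered the value of every gene except Irf9.

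Leaving out the first surgery mouse brought 4 members past the call threshold, with the remaining surgery mouse assumed to vary like the sham mice. These were Ifit1 (log2 fold change 1.80, edgeR adjusted p = 0.0083), Ifit3 (1.10, adjusted p = 0.014), Ifitm3 (1.19, adjusted p = 0.0083) and Oasl2 (1.22, adjusted p = 0.012), 4 of 9, against 7.52% of all tested genes called higher in that fit. Without the second surgery mouse, 0 members were called by edgeR, against 5.27% of all tested genes higher and 1.46% lower.

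Over the 9 genes, 7 (77.8%) were highest in the second surgery mouse, as were 28.4% of all tested genes and 31.0% of the 8455 genes whose mean CPM lay within the range of the members. At least 2-fold more in the second than in the first surgery mouse was found in 7 of the 9 (77.8%), against 3.59% of all tested genes and 3.24% of the genes in the same range of mean CPM. These 7 were Ifit1, Ifit3, Ifitm3, Irf7, Isg15, Oasl2 and Bst2. Between the sham mice, Bst2 was the member with at least 2-fold more in the second than in the first (3.63-fold), which was found for 2.90% of all tested genes. Both surgery mice lay above both sham mice in 2 of the 9 (22.2%; Irf9 and Oasl2), and 33.2% of all tested genes did so. Both surgery mice lay below both sham mice in 0 of the 9 (32.2% of all tested genes), and the groups overlapped in the other 7 (34.5% of all tested genes). The summed level of the 9 genes was 73.6 and 79.4 CPM in the sham mice and 73.7 and 118 CPM in the surgery mice.

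Compared per kilobase of exon, Ifitm3 was the most abundant transcript of the set (mean over the 4 mice 18.8 CPM per kb, range 11.2 to 34.2). Bst2 (8.05 CPM per kb), Stat2 (5.90) and Ifit3 (3.65) came next, then Irf9 (2.43) and Isg15 (2.15 CPM per kb). Ifit1 (0.917), Oasl2 (0.777) and Irf7 (0.703 CPM per kb) were lowest. Each of the 8 pairs of neighbours in this order overlapped in its range over the 4 mice. Compared within each mouse, the gene placed higher was above its neighbour in all 4 mice in 4 of the 8 pairs (Ifitm3 over Bst2, Stat2 over Ifit3, Ifit3 over Irf9 and Isg15 over Ifit1).

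The ISRE that ISGF3 binds was looked for in RefSeq promoter windows (GRCm38.p6) from 250 bases before to 50 bases after the start of each gene, as a pair of GAAA blocks with any 2 bases between them, or the reverse complement with TTTC blocks, on either strand. The motif occurred in the windows of 6 of the 9 genes and in 3.99% of the 27025 genes with a window. Ifit1 held it at 104 and 85 bases before the start and Ifit3 at 156 and 122 bases. Isg15 had 3 overlapping matches at 78, 72 and 66 bases and Bst2 2 overlapping matches at 130 and 124 bases before the start. Stat2 had 1 match at 222 bases before the start, and the matches of Ifitm3 lay 2 and 19 bases after it. For Irf7, Irf9 and Oasl2 these letters were not in the window. The stretches upstream of the start are shown for the members with more than 1 match before it, to set the paired arrangement of Ifit1 and Ifit3 beside the overlapping arrangement of Isg15 and Bst2, with the motif in capitals. Bases within annotated exons are left out, so the stretch of Ifit1 is 127 bases long and ends short of the start from which its distances are counted, whereas the other 3 hold all 250 bases up to the start. Those of Ifit1 (chr19:34640744-34640870) and Ifit3 (chr19:34583279-34583528) are on the plus strand and those of Isg15 (chr4:156200819-156201068) and Bst2 (chr8:71537473-71537722) on the minus strand.
Ifit1: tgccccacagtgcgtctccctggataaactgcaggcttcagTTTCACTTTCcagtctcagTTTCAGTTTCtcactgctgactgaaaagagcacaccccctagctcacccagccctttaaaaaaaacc
Ifit3: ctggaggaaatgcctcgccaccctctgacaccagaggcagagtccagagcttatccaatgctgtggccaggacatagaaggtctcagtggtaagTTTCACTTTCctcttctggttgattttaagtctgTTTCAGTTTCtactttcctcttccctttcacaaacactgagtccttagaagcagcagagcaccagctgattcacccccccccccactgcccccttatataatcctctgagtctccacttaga
Isg15: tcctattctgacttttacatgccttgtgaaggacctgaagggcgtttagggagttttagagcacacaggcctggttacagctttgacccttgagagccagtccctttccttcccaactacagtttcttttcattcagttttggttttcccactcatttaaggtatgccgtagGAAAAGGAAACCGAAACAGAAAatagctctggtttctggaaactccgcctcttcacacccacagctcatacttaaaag
Bst2: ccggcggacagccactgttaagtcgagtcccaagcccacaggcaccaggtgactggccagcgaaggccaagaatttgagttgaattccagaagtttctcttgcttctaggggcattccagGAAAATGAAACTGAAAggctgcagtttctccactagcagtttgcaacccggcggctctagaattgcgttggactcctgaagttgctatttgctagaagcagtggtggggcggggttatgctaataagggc

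Of these 4 genes, Ifit1, Ifit3 and Isg15 were highest in the second surgery mouse and Bst2 in the second sham mouse. Oasl2 and Irf7, with no match, were also highest in the second surgery mouse. Over all 9 genes, 5 of the 6 with a match and 2 of the 3 without one were highest in that mouse. This difference was not tested.

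Upstream of these genes, transcripts of the interferons themselves were at the limit of detection. Of 21 interferon genes listed, 15 had no row in the table, and the 6 that did held at most 2 reads in any mouse. Their reads summed to 1 and 0 in the sham mice and to 4 and 2 in the surgery mice, and 3 reads, the limit that a count of 0 allows, corresponded to 0.164 to 0.188 CPM. A difference in interferon transcripts was not detectable at this depth.

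The receptors were expressed in all 4 mice, and 0 of 6 receptor genes were called by edgeR (2 at an unadjusted p under 0.05) or by DESeq2 (1 at an unadjusted p under 0.05). Over all tested genes, edgeR called 9.01% and gave 39.4% an unadjusted p under 0.05, and DESeq2 gave 30.3% one. Ifnar1 had 45.4 and 43.6 CPM in the sham mice and 48.3 and 54.6 CPM in the surgery mice (log2 fold change 0.21, SE 0.09, edgeR adjusted p = 0.13). Ifnar2 had 13.7, 13.2, 13.7 and 16.4 CPM in the same order (0.16, SE 0.14, adjusted p = 0.45). Both were highest in the second surgery mouse, by far smaller margins than Ifit1 or Ifitm3.

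Among the 5 kinases and STAT genes of the pathway, edgeR and DESeq2 each called 0 and gave 1 an unadjusted p under 0.05, with the same shares over all tested genes as for the receptors. Jak1 was nearly level at 196 and 190 CPM in the sham mice and 187 and 200 CPM in the surgery mice (log2 fold change 0.00, SE 0.06). Tyk2 had 43.5, 36.8, 35.3 and 32.6 CPM (−0.24, SE 0.11, edgeR adjusted p = 0.16). Jak2, which serves the receptor for interferon gamma, passed at the adjusted p alone, under the fold threshold (0.53, SE 0.08, edgeR adjusted p = 0.0074). It had 29.8 and 31.0 CPM in the sham mice and 43.0 and 45.0 CPM in the surgery mice. Over all tested genes, 26.0% passed at the adjusted p alone. After correction for GC content and length the log2 fold change of Jak2 was 0.26 and did not pass (edgeR adjusted p = 0.14). Of 7 other genes of the IRF family, 0 were called by edgeR or DESeq2, with 0 at an unadjusted p under 0.05 in either (39.4% and 30.3% of all tested genes).

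Of 14 genes for sensing nucleic acid, 1 rose and 0 fell (7.14% and 0, against 6.75% and 2.25% of all tested genes). Tlr3, the endosomal receptor for double-stranded RNA, had 8.13 and 7.33 CPM in the sham mice and 14.5 and 13.9 CPM in the surgery mice (log2 fold change 0.88, SE 0.14, edgeR adjusted p = 0.0084). Both surgery mice lay above both sham mice, but the call was lost after correction for GC content and length (0.39, adjusted p = 0.18). An antisense gene, Gm45542, overlaps its exons, and reads of the 2 genes cannot be told apart without strand.

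Of 8 negative regulators, 1 rose and 0 fell (12.5% and 0, against 6.75% and 2.25% of all tested genes). Ptpn2, a phosphatase that acts on JAK and STAT proteins, had 15.1 and 10.8 CPM in the sham mice and 21.3 and 20.3 CPM in the surgery mice (log2 fold change 0.68, SE 0.17, edgeR adjusted p = 0.032). Its call was lost in 5 of 11 alternatives, among them without the second sham mouse (0.46, adjusted p = 0.099) and without the first surgery mouse (0.64, adjusted p = 0.059). Usp18, an induced gene that removes Isg15 from proteins and blocks the receptor, had 0.348 and 1.97 CPM in the sham mice and 0.564 and 1.78 CPM in the surgery mice (0.01, SE 0.79), highest in the second sham mouse.

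Of 49 other tested genes listed as induced by interferon or as relatives of such genes, 3 rose and 1 fell (6.12% and 2.04%, against 6.75% and 2.25% of all tested genes), and their median log2 fold change was 0.24. Herc6, an enzyme that attaches Isg15, had 2.38 and 2.52 CPM in the sham mice and 4.01 and 5.21 CPM in the surgery mice (log2 fold change 0.91, SE 0.26, edgeR adjusted p = 0.043). Gbp7, a guanylate-binding GTPase, rose from 2.15 and 2.68 CPM to 4.33 and 5.87 CPM (1.08, SE 0.27, adjusted p = 0.032). In both genes both surgery mice lay above both sham mice, but each call was lost in 7 of 11 alternatives, among them DESeq2's test (adjusted p = 0.11 for Herc6 and 0.053 for Gbp7) and leaving out either sham mouse or the second surgery mouse.

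Ifit1bl2, a relative of Ifit1, rose on few reads, 6 and 4 in the sham mice and 14 and 18 in the surgery mice (1.76, SE 0.48, edgeR adjusted p = 0.039), and lost its call whichever mouse was left out. Ifitm10, listed as a relative of Ifitm3 within its family, fell from 16.1 and 16.5 CPM to 9.47 and 10.1 CPM (−0.74, SE 0.13, adjusted p = 0.01). After correction for GC content and length, 0 of the 6 called pathway genes were called by edgeR; their adjusted p ran from 0.065 for Ifitm10 to 0.44 for Herc6, and 0.654% of all genes then tested were called higher and 0.234% lower. The log2 fold changes were then −0.60 for Ifitm10, 0.76 for Gbp7 and 1.35 for Ifit1bl2, and 0.39 for Tlr3, 0.36 for Herc6 and 0.25 for Ptpn2.

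Other relatives of the members did not pass the test. Ifit2 had 6.04 and 5.20 CPM in the sham mice and 7.40 and 11.3 CPM in the surgery mice (log2 fold change 0.74, SE 0.25, edgeR adjusted p = 0.072), with both surgery mice above both sham mice. Ifit3b had a log2 fold change of 0.44 (SE 0.35, adjusted p = 0.4). For Ifitm2 (1.04, 2.13, 0.752 and 1.90 CPM) it was −0.26 (SE 0.54), and for Oas1a (0.639, 0.766, 0.314 and 1.36 CPM) 0.27 (SE 0.65). Oasl1 (6, 0, 2 and 9 reads) and Mx1 (4, 6, 3 and 3 reads) had too few reads to be tested.

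Pathway genes outside the 9 were also often highest in the second surgery mouse. These were 5 of 6 receptor genes (83.3%), 4 of 5 JAK-STAT genes (80.0%) and 8 of 14 sensing genes (57.1%). The share was lower for other IRF genes (3 of 7, 42.9%) and negative regulators (3 of 8, 37.5%). At least 2-fold more than in the first surgery mouse was found for 1 receptor gene, 0 JAK-STAT genes and 0 sensing genes. It was also found for 1 other IRF gene and 3 negative regulators. Of the 49 other induced genes, 33 (67.3%) were highest in the second surgery mouse. In 16 of the 49 (32.7%) it was at least 2-fold above the first, against 28.4% and 3.59% of all tested genes. Without the second surgery mouse their median log2 fold change was 0.01. Among the 89 tested pathway genes outside the 9, those nearest to the median profile of the 9 by Euclidean distance of centred log2 CPM over the 4 mice were Irgm2 (0.23), Ifit3b (0.27), Gbp3 (0.28), Ddx58 (0.28) and Gbp5 (0.29). Nearness to that profile fixes that they were high in the second surgery mouse.

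**Figure D3:**
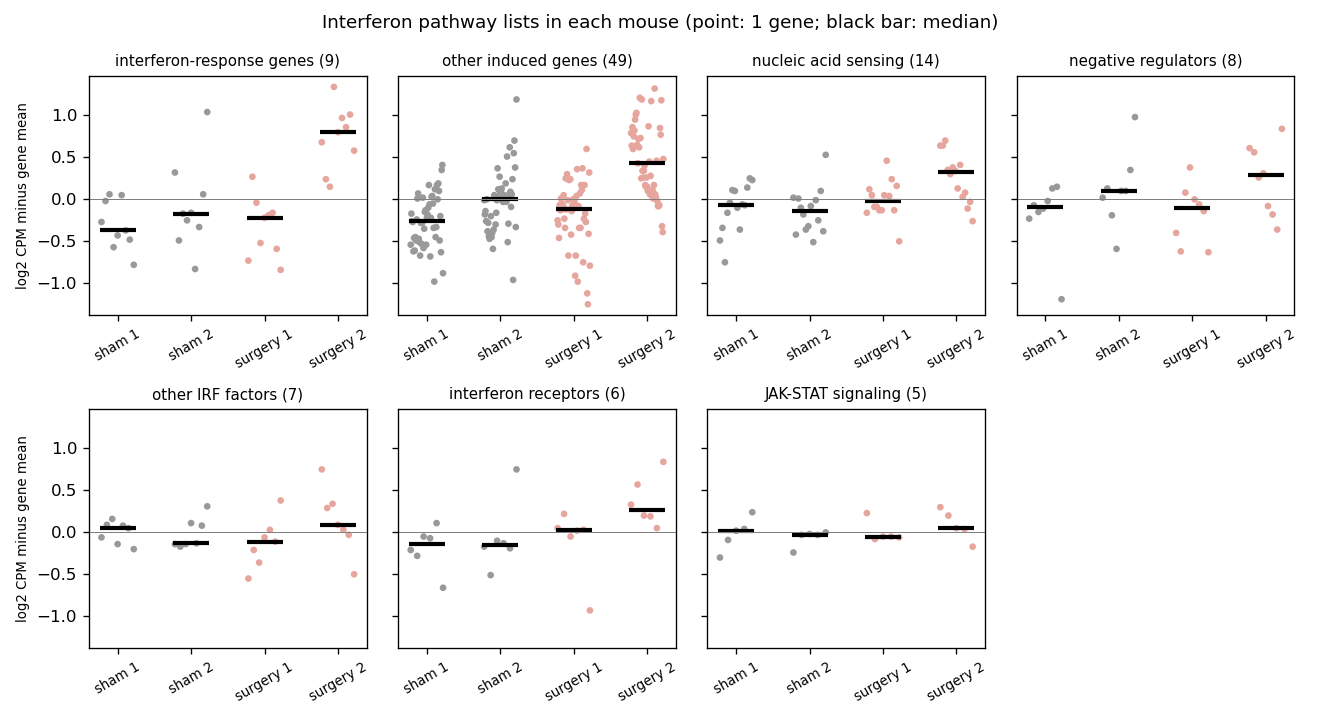
Centred log2 CPM in each of the 4 mice for the 9 genes and for each pathway list with tested genes; small points are genes and the black mark is the median. The median of the 9 genes was 0.80 in the second surgery mouse and between −0.37 and −0.17 in the other 3 mice; the median of the other induced genes was 0.43 in that mouse.

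Cell type markers also differed between these libraries. The hippocampal mixture held neuron markers at 5307 to 5949 CPM summed over 6 genes, and the lists hold no marker particular to the hippocampus. In bulk tissue, fewer cells of a type and less RNA per cell cannot be told apart. Markers of meningeal fibroblasts were highest in the second surgery mouse for 6 of 6 genes, with sums of 100.5 and 270.2 CPM in the sham mice and 137 and 430.0 CPM in the surgery mice. Without Igf2, which held 33.1 and 199 CPM in the sham mice and 66.8 and 245 CPM in the surgery mice, the other 5 summed to 67.4, 70.8, 69.9 and 185 CPM in the same order (a sum added after seeing the data). Endothelial markers (5 of 6 highest in that mouse) summed to 192 and 198 CPM in the sham mice and 223 and 287 CPM in the surgery mice, and pericyte markers (4 of 6) to 208 and 189.9 CPM and to 223 and 325 CPM.

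The remaining lists had other orders of mice, apart from the lymphocyte list, which held few reads. Microglial markers summed to 240.3 and 227 CPM in the sham mice and 228 and 236 CPM in the surgery mice, with 1 of 6 highest in the second surgery mouse. Astrocyte markers summed to 3557 and 3305 CPM against 4105 and 3883 CPM. Both surgery mice lay above both sham mice in 4 of 6 astrocyte markers and below in 2, Gfap and Aldh1l1. For microglia these counts were 1 of 6 (P2ry12) and 2 of 6 (Tmem119 and Csf1r), against 33.2% and 32.2% of all tested genes. Oligodendrocyte markers were lowest in sum in the second surgery mouse (3927 CPM, against 5329 to 6183 CPM in the other mice). Red blood cell markers were 5.09 to 8.53 CPM in the sham and 7.29 to 11.2 CPM in the surgery mice, neutrophil markers 9.23 to 14.7 CPM and 2.57 to 9.84 CPM, and lymphocyte markers 0.657 to 0.929 CPM and 0.878 to 1.54 CPM, with 2 lymphocyte markers at 0 reads in each surgery mouse, 1 at 0 in the first sham mouse, and 1 neutrophil marker at 0 in the first surgery mouse. No other marker was at 0 in any mouse. The part of these differences in the levels of the 9 genes was not tested.

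**Figure D4:**
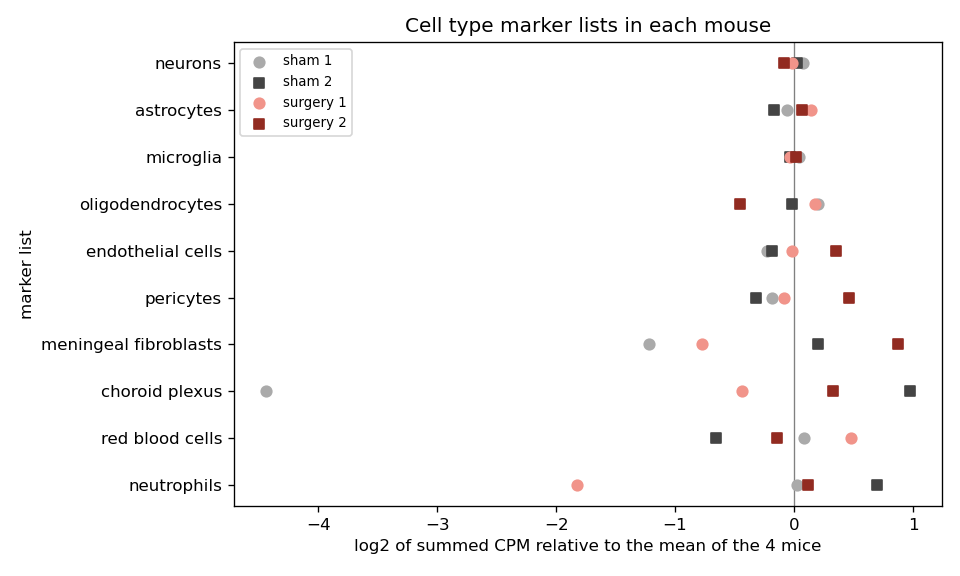
Summed CPM of each cell type marker list with tested genes in each of the 4 mice, as the log2 ratio to the mean of the 4 mice, with a point per mouse. Fibroblast, pericyte and endothelial lists peaked in the second surgery mouse, oligodendrocyte markers were lowest there, and choroid plexus sums ranged from 127 CPM in the first sham mouse to 5407 CPM in the second.

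Libraries held 15763432 to 18573386 counted reads, with 24238 to 25324 genes detected per mouse. The median absolute log2 ratio between mice of a group was 0.14 over all tested genes. Log2 fold changes moved with base composition over all genes, with a median of 0.45 in genes of at most 45.5% GC and −0.30 in genes of at least 54.6%. The members had a median GC content of 51.8%, from 43.3% for Ifit1 to 56.9% for Bst2. After correction for GC content and length, the median log2 fold change of the 9 genes was 0.61, and 0 of the 9 were called by edgeR (Irf9 was nearest, 0.59, SE 0.18, adjusted p = 0.14).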

How the data were processed

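Oligo(dT)-enriched mRNA from the hippocampus of 4 mice was sequenced in paired ends. The authors filtered the reads, used HISAT for alignment to mm10, and deposited whole-number read counts per gene. Their processing notes name HISAT2 2.1.0, TopHat2, Bowtie2 2.2.3 and HTSeq 0.6.0. Strand use in counting is not given in the sources used here. Columns of the authors' own comparison (mean signal, fold change and p-values) were not used.

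Counts were filtered with filterByExpr (minimum count 10), scaled by TMM and tested by edgeR 4.0.16 (R 4.3.3, quasi-likelihood) over 17144 genes. CPM were computed from the deposited counts and the scaled library totals. Alternatives were library totals, DESeq2 1.42.0 size factors and its Wald test, no filter, a replicate block, smooth GC and length offsets (mgcv 1.9.3) and each mouse left out. Replicates are separate mice.

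Members and lists were chosen with earlier results of these data known. Named pathway genes were those called, 12 set relatives (1 is not reported here), and the 5 nearest in profile; Jak2, Lgals3bp, Ifi27, Gbp2, Iigp1, Irgm1, Igtp and Ifi47 were added after their values were seen.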

Additional observations from a re-analysis of the deposited data

How the results depend on the processing

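Each of the 9 genes was recomputed under 11 alternatives, except that DESeq2's test gave no adjusted p for Isg15 (nor for Ifit1bl2). None was called by the reported fit; 1 was called higher (Irf9) under the replicate block with GC content and length correction, and 0 to 4 with 1 mouse left out. Their median log2 fold change ran from 0.03 (without the second surgery mouse) to 1.10 (without the first). Of the 89 other pathway genes, 5 were called higher; the count was 2 by DESeq2's test, 1 without the filter, 0 after GC content and length correction and 1 to 15 with 1 mouse left out (2 without the first sham mouse, 1 without the second, 15 without the first surgery mouse and 2 without the second, against 6.37%, 4.33%, 7.52% and 5.27% of all tested genes). DESeq2's test called 5.31% of all tested genes higher, and the fit without the filter called 2.73% of all 29300 genes higher. The cause of the changes in this count was not tested. The count called lower, 1 as reported, was 0 after that correction, 5 by the adjusted p alone and 1 to 2 with 1 mouse left out. Over all genes, 1158 higher and 386 lower calls became 112 and 40 after GC content and length correction, and 1377 and 224 with library totals alone.

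The sham and surgery mice share the numbers 1 and 2, which no label ties to a batch, litter or day; deviations of same-numbered mice correlated at 0.224 over 17144 genes. With the number as a replicate block, 9 of the 89 other pathway genes were called higher (1289 of 17144 genes in all), and 1 with the block and GC content and length correction (380 of 17120).

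With 2 mice per group, 1 mouse can set a fold change. Isg15 and Ifit1, with 14 to 90 reads per mouse, carry the widest counting error.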

Other observations

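Of the GTPases known to be induced by interferon gamma, the guanylate-binding proteins and the immunity-related GTPases, 8 listed genes were tested. Gbp7 was called higher (1 of 8, against 6.75% of all tested genes), and Ifi47, with 8, 7, 4 and 23 reads, was not tested. Gbp2 had 1.74 and 1.64 CPM in the sham mice and 2.32 and 5.98 CPM in the surgery mice (log2 fold change 1.30, SE 0.49, edgeR adjusted p = 0.096). Iigp1 had 0.639 and 0.930 CPM in the sham mice and 1.57 and 3.61 CPM in the surgery mice (1.72, SE 0.52, adjusted p = 0.054). After correction for GC content and length the values were 1.25 for Gbp2 (edgeR adjusted p = 0.2) and 1.12 for Iigp1 (adjusted p = 0.27). In both, the surgery mice lay above the sham mice and the second surgery mouse was highest. Irgm1 had 8.53, 7.39, 7.21 and 11.5 CPM and Igtp 3.25, 2.84, 2.95 and 3.85 CPM in the order sham, sham, surgery, surgery, with overlapping groups.

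Lgals3bp and Ifi27, like Bst2, were highest in the second sham mouse. Lgals3bp, a secreted binding protein, had 16.4 and 69.8 CPM in the sham mice and 17.6 and 42.5 CPM in the surgery mice. Ifi27 had 29.4 and 53.0 CPM in the sham mice and 29.5 and 42.0 CPM in the surgery mice.

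Among the 70 other pathway genes with a promoter window, 18 of the 23 with the ISRE motif were highest in the second surgery mouse, as were 25 of the 47 without it. The difference was not tested.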
